A study of Mus musculus with 2 samples.

Results

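The CTCF summits at protein-coding gene starts are the summits of the deposited CTCF peaks on chromosomes 1 to 19 that lie within 1 kb, on either side, of the annotated start of a protein-coding gene. A summit is the base at which the pileup of ChIP tags in a peak is highest. The start is the 5′ end of the gene in the GENCODE M1 annotation of the mouse genome build mm9. By this rule 1697 of the 33226 summits on chromosomes 1 to 19 are members, out of 33788 summits in all. They are set beside 13796 summits in introns of protein-coding genes, more than 1 kb from the start of any annotated gene, and 10124 summits between genes, more than 10 kb from any start. The members were chosen by position alone, so the CTCF motif had no part in the choice. Position near a gene start bears on base composition, so the base composition of the members is not independent of the rule.

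CTCF is a DNA-binding protein with an array of zinc fingers that reads a long sequence motif, and it is known for insulating enhancers from promoters and for stopping cohesin, the ring complex that holds chromatin loops. At a loop anchor the strand on which the motif lies matters, because cohesin is stopped mainly when it meets the motif from one side. Many promoters of mammals lie in CpG islands, stretches that keep their CpG dinucleotides and are mostly free of DNA methylation. In the study, CTCF was mapped so that binding sites of the cohesin subunit RAD21 could be compared with it.

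Both libraries came from R1/E mouse embryonic stem cells (ESC) grown with LIF, in which CTCF carried a LAP tag, which contains GFP, and was expressed from a stably integrated bacterial artificial chromosome (BAC) in addition to the endogenous gene. Chromatin crosslinked with 1% formaldehyde was immunoprecipitated with a goat antibody to GFP in 1 library and with goat IgG as isotype control in 1 library. A label of the IgG library names input DNA as well. The isotype antibody given for it was followed here, and if the label on input DNA holds instead, the ratios below are relative to input. There was thus 1 library per antibody and no replicate, so no p-value is given. The 95% intervals of tag ratios and levels cover counting error of the tags. Those of shares, medians and differences treat summits, motifs or starts as independent draws. None of them covers variation between libraries or cultures. The GFP-antibody recognizes the tagged protein, not endogenous CTCF.

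The CTCF library held 8391191 tags and the IgG library 7988889 tags. Tags were moved 93 bp toward the fragment centre before counting. Around Ctcf itself, which the BAC carries, the IgG library was raised over a stretch of 170 kb (chr8:108080001-108250000) to 5.03 times the density of the flanks (exact 95% interval 4.79 to 5.28). The summits at Rltpr, Fam65a, Atp6v0d1 and Gm8841 lie in this stretch, and extra copies of the BAC sequence and CTCF binding cannot be told apart there. Without these 4 members, the ratio of CTCF to IgG tags at the members was 15.8 as with them, and the median height was 12 as with them.

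The sequences at the members that the results turn on are printed here from mm9, on the strand of the motif, with the motif in capitals. The matrix for the CTCF motif was built from 192 CTCF sequences of the study's supplementary motif sheet, and its most frequent base at each of 19 positions gives the consensus on the first line. The next group holds the tallest members outside exons with a motif at a matrix p of 1e-05, and shows how far these sites depart from the consensus. Of these, Rltpr lies in the stretch around Ctcf. RP23-3M10.7 is at chr5:115274492-115274550 on the plus strand, Aldh16a1 at chr7:52410480-52410538 on the plus strand, Rltpr at chr8:108209779-108209837 on the minus strand and Selm at chr11:3414603-3414661 on the minus strand.
consensus: TGGCCACCAGGGGGCACTA
RP23-3M10.7: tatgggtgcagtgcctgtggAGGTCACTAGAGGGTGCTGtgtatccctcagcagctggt
Aldh16a1: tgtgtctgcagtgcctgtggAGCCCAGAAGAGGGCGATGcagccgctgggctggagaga
Rltpr: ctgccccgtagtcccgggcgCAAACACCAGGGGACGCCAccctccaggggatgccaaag
Selm: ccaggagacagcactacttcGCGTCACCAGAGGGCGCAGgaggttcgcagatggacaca

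A further set shows motifs at or close to the start or in an exon, and is limited to the motif with 5 bases on each side. Eif2s1 is at chr12:79962792-79962820 on the minus strand and its motif is centred on the annotated first base of the gene. Trpm8 is at chr1:90174270-90174298 on the minus strand. Uqcrc1 is at chr9:108838621-108838649 and H2-DMa at chr17:34272356-34272384, both on the plus strand.
Eif2s1: ttagtCAACCAAGAGAGGGCGCTGtgacg
Trpm8: cccagAAGCCTCTAGGGGACGCGGgagtg
Uqcrc1: cttgcTGCCCAACAGGGGGCGACTgagca
H2-DMa: ccgacCTTCCACCAGGGGGCGGAGgtctc

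The last set shows tall members with no motif at p 1e-05 within 150 bp of the summit. Timm22 (chr11:76220222-76220322), Adsl (chr15:80778638-80778738) and Fam65a (chr8:108128845-108128945) are printed on the plus strand with 50 bases on each side of the summit. Atp6v0d1 (chr8:108090118-108090176, plus strand) had a match only at the weaker threshold of 1e-04, and that match is in capitals. Fam65a and Atp6v0d1 lie in the stretch around Ctcf, where extra copies and CTCF binding cannot be told apart.
Timm22: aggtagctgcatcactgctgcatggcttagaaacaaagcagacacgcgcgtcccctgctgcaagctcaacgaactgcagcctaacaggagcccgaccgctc
Adsl: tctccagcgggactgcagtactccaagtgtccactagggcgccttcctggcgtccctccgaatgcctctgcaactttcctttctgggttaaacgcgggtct
Fam65a: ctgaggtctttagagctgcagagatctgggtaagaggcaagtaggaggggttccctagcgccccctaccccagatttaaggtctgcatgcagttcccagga
Atp6v0d1: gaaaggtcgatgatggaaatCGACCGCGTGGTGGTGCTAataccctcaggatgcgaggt

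The members were crowded just upstream of the start. Of 1697 members, 1262 lay upstream of the nearest start, 74.4% (95% Wilson interval 72.2 to 76.4), and 435 lay downstream. Among the 4007 summits from 1 to 5 kb away from a start, 55.3% lay upstream (53.8 to 56.9). The median offset of the members from the start was -204 bp (order-statistic interval -225 to -182, negative values lying upstream). The 200 bp directly upstream of the start held 410 members, and the 200 bp directly downstream held 90. The numbers then rose slowly with distance downstream, from 75 members between 200 and 400 bp to 105 members between 800 and 1000 bp. With and without a motif the side was alike, at 75.1% upstream (72.2 to 77.8) and 73.5% (70.2 to 76.5). At the edge of the rule, 130 members lay 900 to 1000 bp from the start, with a median height of 11 tags, and 134 other summits lay 1000 to 1100 bp from it, with a median height of 11.5 tags.

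**Figure D1:**
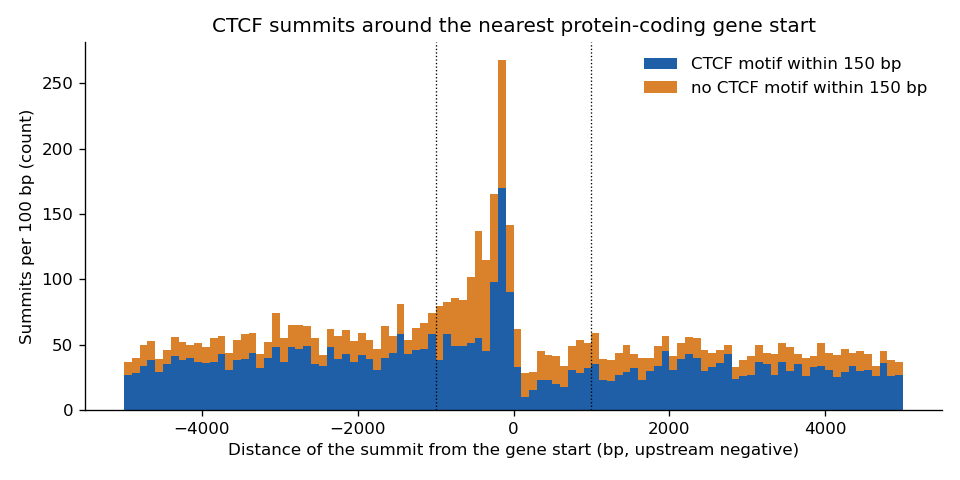
Number of CTCF summits per 100 bp (vertical axis) by distance from the nearest protein-coding gene start (horizontal axis, bp, upstream negative), with summits that have a CTCF motif in blue and the others in orange; dotted lines mark 1 kb on either side. The peak lies in the 200 bp upstream of the start, which held 410 members, next to a trough in the 200 bp downstream, which held 90.

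The members were about as tall as other summits. The deposited height, the number of tags that overlap at the summit, had a median of 12 at gene starts (interval 12 to 12), 13 in introns and 13 between genes, with quartiles of 9 and 16 at the starts. The range was 6 to 57 at gene starts, 6 to 86 in introns and 6 to 78 between genes. The peaks were narrower, with a median width of 736 bp (719 to 751) at gene starts, 846 bp (842 to 852) in introns and 831.5 bp (826 to 837) between genes. The peak call compared the same libraries, so heights and tag ratios of the members are a description.

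Within 150 bp of the summit the members held 26493 CTCF tags and 1600 IgG tags in all. After scaling for depth, CTCF tags were 15.8 times as many as IgG tags (exact interval 15.0 to 16.6). The ratio was 13.9 in introns (13.7 to 14.1) and 14.3 between genes (14.05 to 14.6). The higher ratio at gene starts stood beside a lower level of the IgG library and not a higher level of the CTCF library. Relative to its rate over chromosomes 1 to 19, the IgG library was at 0.970 at gene starts (Poisson interval 0.923 to 1.02), 1.15 in introns and 1.10 between genes. The CTCF library was at 15.2, 15.9 and 15.7 times its own rate at the same summits. At 701 members, 41.3%, no IgG tag fell within 150 bp, which at a single site allows up to 3 tags.

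The tallest member lay 366 bp upstream of Rltpr, a regulator of actin filaments, with a height of 57 tags and 68 CTCF against 3 IgG tags within 150 bp. It lies in the stretch around Ctcf, as do the members 234 bp upstream of Fam65a (height 54, 64 CTCF and 1 IgG tags) and 232 bp upstream of Atp6v0d1 (height 46, 64 CTCF and 6 IgG tags). Atp6v0d1 encodes a subunit of the vacuolar proton pump. These 3 were among the 8 tallest members, and Gm8841, the 4th member in the stretch, had the most IgG tags of any member, 8, beside 23 CTCF tags.

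Outside the stretch, the tallest member lay 626 bp upstream of Aldh16a1, a member of the aldehyde dehydrogenase family. It had a height of 56, 58 CTCF tags and 0 IgG tags. Set against the limit of 3 IgG tags, the depth-scaled ratio was 18.4 (5.99 to 91.8). The motif printed for it lay on the strand opposite to the gene. H2-DMa, a chaperone that loads peptides onto MHC class II molecules, had the tallest member downstream of a start, in an exon 211 bp from it, with a height of 45 and 46 CTCF against 3 IgG tags. RP23-3M10.7, a gene known by its clone name, had a member 971 bp upstream with a height of 43 and 52 CTCF against 1 IgG tags.

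Eif2s1, the alpha subunit of the translation initiation factor eIF2, and Selm, a selenoprotein of the endoplasmic reticulum, had members with a height of 42. The Eif2s1 member held 42 CTCF and 0 IgG tags, with the summit 75 bp downstream of the start, in an exon. The Selm member held 43 CTCF and 0 IgG tags, with the summit 12 bp upstream. All of these tall members held many times more CTCF than IgG tags. The lowest members had a height of 6. Of these, Lrmp held 9 CTCF and 1 IgG tags, Dip2b held 6 CTCF and 2 IgG tags, and Top3a, a DNA topoisomerase, held 7 CTCF and 1 IgG tags. At such sites a few tags set the ratio, which was 2.86 at Dip2b with an interval of 0.511 to 28.9. Outside the stretch around Ctcf, the member with the most IgG tags lay 339 bp upstream of the ribosomal protein gene Rps3a, with 16 CTCF and 7 IgG tags, a ratio of 2.18 (0.847 to 6.25).

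Fewer members than other summits carried the CTCF motif. A motif at p 1e-05 lay within 150 bp of 936 of the 1697 members, 55.2% (Wilson interval 52.8 to 57.5), where 72.6% of all summits on chromosomes 1 to 19 had one. The share was 72.9% in introns (72.2 to 73.7) and 74.98% between genes (74.1 to 75.8). The difference was -17.8 percentage points from introns (Newcombe interval -20.2 to -15.3) and -19.8 points from summits between genes (-22.3 to -17.3). In windows of the same size 2 kb away on either side, the share was 6.63% for the members, 5.16% in introns and 5.24% between genes. At the weaker threshold of 1e-04 the shares were 76.1%, 83.9% and 85.1%, in the same order. The share varied with distance from the start. At 1e-05 it was 60.6% (56.3 to 64.8) among the 500 members within 200 bp of the start. It was lowest, 44.6% (38.5 to 50.9), among the members 400 to 600 bp upstream. At 1e-04 the 500 members closest to the start had 83.4% (79.9 to 86.4), near the shares of the other classes. Within the members, 876 had 1 motif and 60 had more than 1.

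The difference was present at every height. Among members with heights of 6 to 9, 38.4% had a motif (33.9 to 43.0), beside 56.8% between genes (54.7 to 58.9). For heights of 10 to 14 the shares were 57.6% and 74.5%, and for 15 to 19 they were 59.7% and 85.6%. For heights of 20 to 29 they were 71.0% (64.6 to 76.7) and 86.8% (84.8 to 88.6). For heights of 30 and over, with 39 members, they were 76.9% (61.7 to 87.4) and 91.3% (86.2 to 94.7). The share rose with height in both classes, and in each of the 5 height groups the interval of the difference lay below 0, the nearest bound being -2.78 points in the tallest group. Members without a motif had a median height of 11 tags and a ratio of 13.2 (12.3 to 14.2), and members with one had a median height of 13 and a ratio of 18.1 (16.9 to 19.5). The IgG level was 1.05 times the genome rate at the former (0.975 to 1.12) and 0.906 at the latter (0.846 to 0.970).

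**Figure D2:**
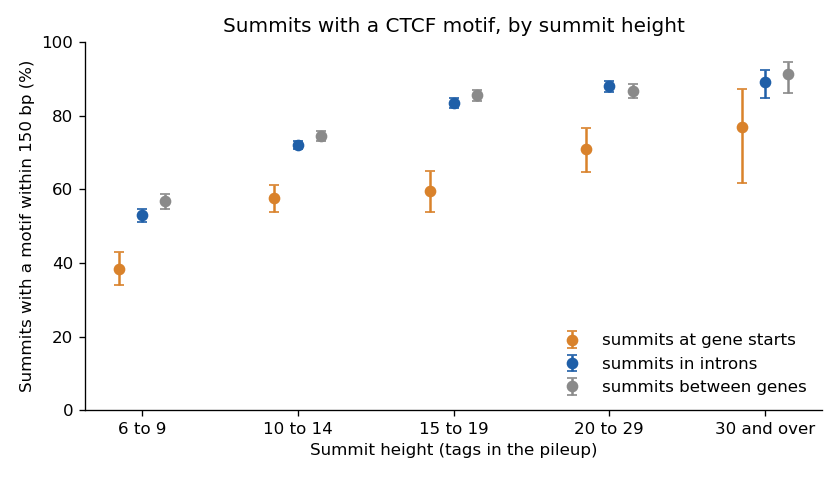
Share of summits with a CTCF motif within 150 bp (vertical axis, percent) by summit height (horizontal axis, tags in the pileup) for summits at gene starts, in introns and between genes; points are shares and bars 95% Wilson intervals. At each height the gene starts lie below both other classes, from 38.4% at heights of 6 to 9 to 76.9% at 30 and over.

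Some members without a motif were tall. Outside the stretch around Ctcf the tallest lay 182 bp upstream of Timm22, part of the machinery that inserts proteins into the inner membrane of mitochondria, with a height of 41 and 46 CTCF against 1 IgG tags. Next came the member 232 bp upstream of Adsl, an enzyme of purine synthesis, with a height of 36 and 41 CTCF against 1 IgG tags. No match to the matrix at 1e-04 lay within 150 bp of either summit. The matrix was built from sequences that had themselves passed a motif search, so CTCF-like sequences that it scores lower can be missed. Their ratios were 43.8 (7.48 to 1767) for Timm22 and 39.0 (6.62 to 1579) for Adsl.

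In members with a motif, the best motif had a median offset of -149 bp from the start (order-statistic interval -176 to -129), and at 69 members its centre was within 50 bp of the start. Eif2s1, Trpm8 and Uqcrc1 were among the tallest of these. The motif at Trpm8, an ion channel that senses cold and menthol, was centred 48 bp downstream of the start, with 48 CTCF and 1 IgG tags at the summit. The motif at Uqcrc1, a core subunit of respiratory complex III, was centred 26 bp upstream, with 36 CTCF and 1 IgG tags. Along the strand of the motif, the median offset of the summit from the motif centre was -15 bp at gene starts (interval -20 to -10), -13 bp in introns and -14 bp between genes, negative values lying before the motif. The summit thus stood in the same place relative to the motif in all 3 classes, within these intervals.

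The motifs pointed more often the way of the gene than against it. The best motif lay on the strand of the gene at 543 of 936 members, 58.0% (Wilson interval 54.8 to 61.1). The share was 60.2% upstream of the start (56.5 to 63.7) and 51.5% downstream (45.1 to 57.8). It was highest for members 0 to 200 bp upstream, where 178 of 260 motifs lay on the strand of the gene, 68.5% (62.6 to 73.8). Part of this lean was present in motifs that had no summit. Of motifs 0 to 200 bp upstream of a start, 57.0% of the 959 without a summit lay on the strand of the gene (53.9 to 60.1), as did 65.5% of the 316 with one (60.1 to 70.5), a difference of 8.47 points (2.24 to 14.4). Over the whole 1 kb upstream the difference was 5.26 points (1.34 to 9.10).

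Seen from the motifs, those upstream of a start carried a summit more often than those downstream. Of 7090 motifs at p 1e-05 within 1 kb of a start, 1024 had a summit within 150 bp, 14.4% (13.6 to 15.3), beside 10.4% in introns (10.2 to 10.6) and 9.37% between genes (9.18 to 9.57). Upstream the share was 20.4% of 3782 motifs (19.2 to 21.8) and downstream 7.59% of 3308 (6.73 to 8.54), a difference of 12.9 points (11.3 to 14.4). The share was highest in the last 200 bp before the start, at 24.8% (22.5 to 27.2), and fell to 5.38% in the first 200 bp after it (4.02 to 7.17). From there it rose with distance to 12.8% at 800 to 1000 bp downstream (10.3 to 15.9).

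The difference between the sides was present outside exons and at each base composition. Downstream motifs in exons had a summit in 6.17% of cases (5.09 to 7.46) and those outside exons in 8.90% (7.64 to 10.3). Upstream motifs outside exons had one in 20.4% (19.1 to 21.7). At a GC content of 55 to 60% within 150 bp of the motif, the shares were 31.9% upstream (28.1 to 36.0) and 13.3% downstream (10.5 to 16.7). At a GC content of 65% and over they were 8.46% (6.56 to 10.9) and 1.38% (0.836 to 2.26). Upstream was higher in each of the 6 groups of GC content, and the intervals did not overlap in any. Among the weakest motifs, with a score of 13 to 15 bits, the shares were 10.2% upstream (8.80 to 11.7) and 3.21% downstream (2.49 to 4.13). Among the strongest, with 21 bits and over, they were 56.9% upstream (50.4 to 63.2) and 50.6% downstream (40.4 to 60.7), and these intervals overlapped.

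**Figure D3:**
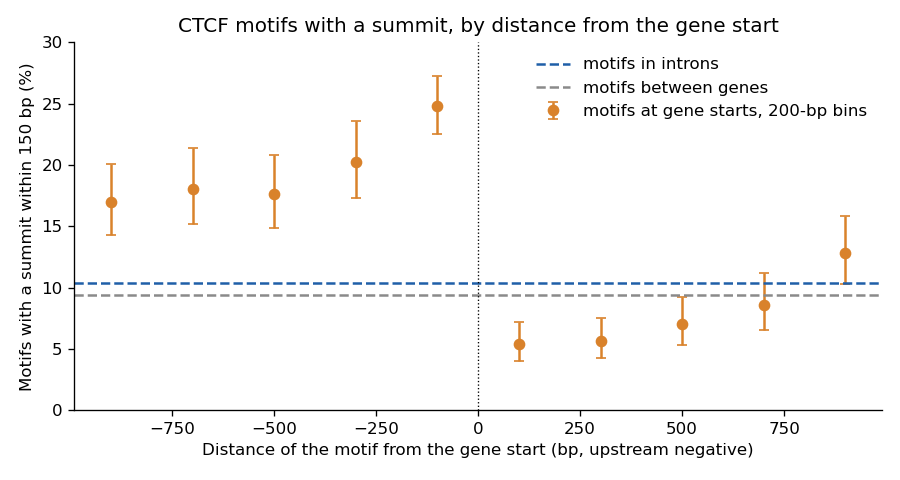
Share of CTCF motifs (p 1e-05) that have a summit within 150 bp (vertical axis, percent) by distance of the motif from the gene start (horizontal axis, bp, upstream negative); points are 200-bp groups with 95% Wilson intervals, and dashed lines give the shares in introns (10.4%) and between genes (9.37%). The share steps down at the start, from 24.8% in the last 200 bp upstream to 5.38% in the first 200 bp downstream.

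The level of both libraries was also lower around and after the start than upstream of it. Tags were counted in steps of 50 bp and are given per kb, scaled per 1e+06 tags of the library. Around the 1754 starts with a summit within 1 kb, the CTCF library was at 3.81 in the step centred 175 bp upstream, 2.96 at 125 bp upstream, 2.35 at 25 bp upstream and 1.61 at 25 bp downstream. The IgG library was at 0.383, 0.230, 0.178 and 0.156 at the same places, so most of its fall lay between 175 and 125 bp upstream and little of it at the start itself. Around 16086 starts with no summit within 5 kb, the CTCF library was at 0.462, 0.346, 0.291 and 0.277 and the IgG library at 0.324, 0.281, 0.250 and 0.233. At these starts both were lowest 225 bp downstream, at 0.268 and 0.222. The part of this shared fall in the numbers of summits on each side of the start was not tested.

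**Figure D4:**
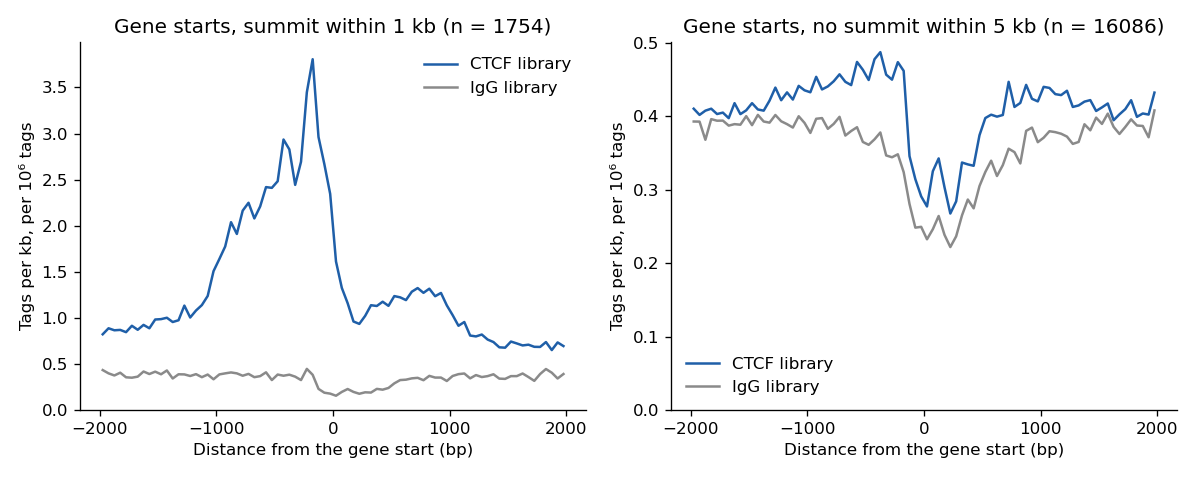
Tags per kb, scaled per 1e+06 tags of the library (vertical axis), by distance from the gene start (horizontal axis, bp, in the direction of the gene) for the CTCF library in blue and the IgG library in grey, at starts with a summit within 1 kb (left) and with none within 5 kb (right); the vertical scales differ. With a summit, the CTCF library reached 3.81 at 175 bp upstream and the IgG library 0.383, and at the other starts both libraries ran through a broad trough that began upstream of the start and was lowest 225 bp downstream, at 0.268 and 0.222.

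At starts without a summit the CTCF library lay somewhat above the IgG library. Within 150 bp of those 16086 starts lay 12863 CTCF and 9810 IgG tags, a ratio of 1.25 (1.22 to 1.28), with the IgG library at 0.627 times its genome rate (0.615 to 0.640) and the CTCF library at 0.779 times its own (0.766 to 0.793). A motif lay within 150 bp of 5.25% of these starts (4.91 to 5.60) and of 24.2% of the starts with a summit within 1 kb (22.3 to 26.3).

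The members were richer in CpG than other summits. The ratio of observed to expected CpG within 150 bp of the summit had a median of 0.460 at gene starts (0.444 to 0.477), 0.189 in introns and 0.214 between genes. The median GC content was 50.8%, 45.8% and 45.5%. A summit was counted as CpG rich at a GC content of at least 50% and an observed to expected ratio of at least 0.6, in the manner of a CpG island but over a shorter window. There were 389 CpG-rich members, 22.9% (20.99 to 24.98), beside 2.4% of all summits on chromosomes 1 to 19, 0.696% in introns and 1.14% between genes. The share was 45.4% among the 500 members within 200 bp of the start (41.1 to 49.8). Gene starts themselves were more often CpG rich than the members, with windows centred on the start. The share was 64.1% of the 1754 starts with a summit within 1 kb (61.9 to 66.4). It was 45.2% of the 16086 starts with none within 5 kb (44.5 to 46.0).

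The CpG-rich members had a median height of 12 tags, as did the 1308 others. Their ratio of CTCF to IgG tags was 22.8 (20.1 to 26.0), against 14.5 for the others (13.7 to 15.3). Here too the CTCF level was alike, at 15.1 and 15.2 times the genome rate, while the IgG library was at 0.666 (0.586 to 0.754) and 1.06 (1.00 to 1.12) times its own. A motif was found in 61.4% of the CpG-rich members (56.5 to 66.1) and 53.3% of the others (50.6 to 56.0), a difference of 8.15 points (2.54 to 13.6). Of 177 CpG-rich summits more than 10 kb from any start, 71.8% had a motif (64.7 to 77.9), and the difference of the CpG-rich members from them was -10.3 points (-18.2 to -1.85). For members that were not CpG rich, the difference from summits of the same kind away from starts was -20.8 points (-23.5 to -18.01). At the stricter motif threshold, lack of a motif at gene starts was thus not limited to the CpG-rich members. With the weaker threshold, 85.3% of the CpG-rich members had a motif (81.5 to 88.5). The share was 87.0% for CpG-rich summits away from starts (81.3 to 91.2), and these intervals overlapped. For members that were not CpG rich it was 73.4% (70.9 to 75.7), below the 84.6% of summits of the same kind away from starts (84.1 to 85.1).

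Seen from the genes, 1754 of 21418 protein-coding starts, 8.19% (7.83 to 8.56), had a CTCF summit within 1 kb. The share was 10.8% for 10445 CpG-rich starts (10.2 to 11.4) and 5.73% for 10973 others (5.31 to 6.18). As nearest start, the members named 1659 genes, of which 1621 had 1 member and 38 had 2. In 98 members, more than 1 start lay within 1 kb, and in 89 of these the starts lay on both strands. Gene lists were compared with the share of 8.19% by their counts alone. Over all members, 74.4% lay upstream, 55.2% had a motif, and 58.0% of the best motifs lay on the strand of the gene. Counts of side, motif and strand within a list stand beside these shares and were not tested against them.

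Of 77 starts of genes with the symbols of cytoplasmic ribosomal proteins, a list that includes Rpl7l1, 26 had a summit, 33.8% (24.2 to 44.9). Of these 26 members, 24 lay upstream and 11 had a motif, and together they held 454 CTCF and 24 IgG tags. The tallest was at Rps29, a protein of the small subunit, with a height of 31 and 38 CTCF against 0 IgG tags, 556 bp upstream. The heights of the list ran from 8 to 31. Among the 77 mitochondrial ribosomal protein genes, 12 starts had a summit, 15.6% (9.15 to 25.3), with 9 of 13 members carrying a motif. The tallest was at Mrpl34, with a height of 23 and 23 CTCF against 0 IgG tags, 126 bp upstream.

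Of 41 starts of genes named for NADH dehydrogenase, respiratory complex I and its assembly factors, 13 had a summit, 31.7% (19.6 to 47.0). For 11 members these genes were the nearest, since some summits lay nearer to another start, and 8 lay upstream. The tallest was at Ndufv1, which binds NADH in the complex, with a height of 27 and 29 CTCF against 2 IgG tags, 145 bp upstream with the motif on the strand of the gene. Ndufa3 followed with a height of 26 and 33 CTCF against 2 IgG tags. Of 41 proteasome subunit starts, 8 had a summit, 19.5% (10.2 to 34.0), and all 8 members lay upstream. Psmc6, an ATPase of the proteasome cap, had the tallest, with a height of 23 and 24 CTCF against 2 IgG tags, 287 bp upstream. Of 27 RNA polymerase subunit starts, 4 had a summit, 14.8% (5.92 to 32.5), at Polr2c, Polr3gl, Polr3a and Polr2j, and all 4 had a motif on the strand of the gene and lay upstream. At Polr2c the motif was centred 6 bp upstream of the start, with 18 CTCF and 1 IgG tags at the summit.

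The share of CpG-rich starts in these lists was 84.4% for cytoplasmic and also for mitochondrial ribosomal proteins. It was 85.4% for NADH dehydrogenase genes, 87.8% for proteasome subunits and 96.3% for RNA polymerase subunits. The intervals for mitochondrial ribosomal proteins, proteasome subunits and RNA polymerase subunits held the 10.8% of CpG-rich starts. Those for cytoplasmic ribosomal proteins and NADH dehydrogenase genes lay above it. Of 17 starts of cohesin genes and their regulators, 88.2% CpG rich, 1 had a summit, 5.88% (1.05 to 27.0), at Esco1, the acetyltransferase of the cohesin subunit SMC3, with a height of 11 and 11 CTCF against 2 IgG tags. Of 16 starts of DNA methylation genes, 12 of them CpG rich, 0 had one, with an upper Wilson bound of 19.4%, and the closest summit lay 1479 bp from a start. The intervals for the cohesin and the DNA methylation genes both hold the 8.19% of all starts and the 10.8% of CpG-rich starts.

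The clustered protocadherins stood at the other end of base composition. These cell-surface proteins give neurons a combinatorial identity, and each variable exon has a promoter of its own, many of them with a known CTCF site. Of the 24 starts listed for this family, 23 had a summit within 1 kb, 95.8% (79.8 to 99.3), although 1 of the 24 was CpG rich. The 25 members there held 415 CTCF and 28 IgG tags, with heights from 9 to 22. Of them 18 lay upstream and 14 had a motif at 1e-05. Pcdha11 and Pcdhgc5 were the tallest, each with a height of 22. The Pcdha11 member held 34 CTCF and 0 IgG tags 180 bp upstream of the start, and the Pcdhgc5 member 24 CTCF and 0 IgG tags 144 bp upstream. In Pcdhb3 and Pcdhb17, both with a height of 19, the summit lay 130 bp and 217 bp upstream, with 21 and 20 CTCF tags and 2 IgG tags at each. The summits thus covered the 24 listed starts nearly completely at moderate heights. Each listed start is the 5′ end of an annotated gene, so promoters of variable exons inside a gene were not counted.

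None of 26 starts of pluripotency factors had a summit within 1 kb, 0% with an upper Wilson bound of 12.9%, and the closest summit lay 1533 bp from a start. None of 29 starts of lineage transcription factors had one, with an upper bound of 11.7% and the closest summit at 1695 bp. These upper bounds lie above 8.19%, so a share equal to that of all starts lies within the counting error. Of 30 imprinted genes, 1 had a summit at its start, 3.33% (0.591 to 16.7), and this interval also holds the 8.19%. It was at Commd1, 121 bp upstream with a height of 18, 20 CTCF and 1 IgG tags and no motif.

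Hox genes, which pattern the body axis, had a summit at 6 of 40 starts, 15.0% (7.06 to 29.1). At Hoxa7 the summit lay 1 bp from the start with a height of 17 and 17 CTCF against 3 IgG tags. At Hoxa5 it lay 21 bp downstream with a height of 13 and 19 CTCF against 1 IgG tags. Both had a motif on the strand of the gene. Cyclins and cyclin-dependent kinases had 6 of 40 as well, 15.0%, with Cdk18 as the tallest at a height of 19 and 20 CTCF against 2 IgG tags. Histone genes had 5 of 67, 7.46% (3.23 to 16.3), the tallest at Hist1h3e with a height of 35, 38 CTCF and 3 IgG tags, 940 bp upstream and without a motif.

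The large families were near the share of all starts or far below it. Zfp zinc finger genes had a summit at 31 of 362 starts, 8.56% (6.10 to 11.9), led by Zfp113 with a height of 39 and 41 CTCF against 1 IgG tags. Solute carriers had 32 of 343, 9.33% (6.69 to 12.9), led by Slc37a1 with a height of 25 and 26 CTCF against 0 IgG tags. Keratins had 2 of 51, 3.92% (1.08 to 13.2), at Krt8 and Krt222. Olfactory receptors had 7 of 1106, 0.633% (0.307 to 1.30), and 1 of these 7 members lay upstream. The tallest, at Olfr543, lay in an exon 369 bp downstream of the start, with 19 CTCF and 4 IgG tags. Vomeronasal receptors had 0 of 321, which allows a share of up to 1.18%. None of the 1106 olfactory starts and 1 of the 321 vomeronasal starts was CpG rich. Many members of both families have close copies in the genome, and how tags that match several copies were treated is not given in the sources used here, so these shares are uncertain.

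**Figure D5:**
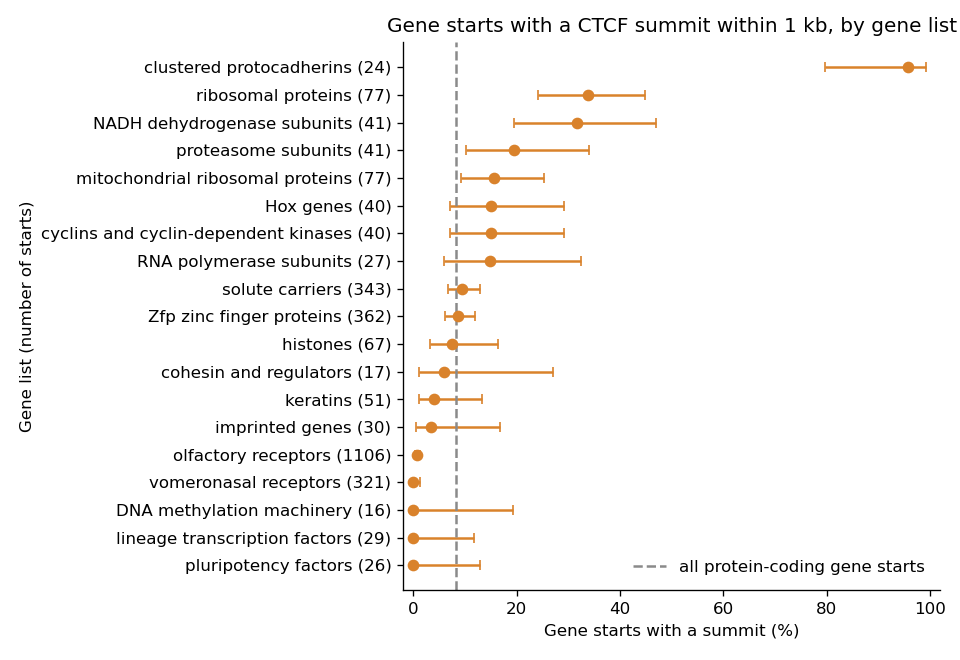
Share of gene starts with a CTCF summit within 1 kb (horizontal axis, percent) for each gene list (vertical axis, number of starts in brackets); points are shares, bars 95% Wilson intervals, and the dashed line the 8.19% of all protein-coding starts. The clustered protocadherins lie at 95.8%, ribosomal proteins at 33.8% and NADH dehydrogenase genes at 31.7%, and the olfactory receptors at 0.633%.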

How the data were processed

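The authors deposited, per library, 1 line per aligned tag of 35 bp with a count of 1 and no normalization. For the CTCF library they also deposited peaks called with MACS 1.4 against the IgG library, with a score (lowest 50), and summits with a signal, the height of the tag pileup. The aligner is not given in the sources used here, and coordinates are those of mm9. No tag position was repeated.

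Gene starts, motifs, base composition and tags within 150 bp were computed from these files, mm9 and GENCODE M1 in Python 3.11.15 (numba 0.67.0, pandas 2.3.3, scipy 1.17.1, matplotlib 3.10.9, numpy 2.4.6). Tags were moved 93 bp, from a fragment length of 187 bp at the 1000 highest scoring peaks. The matrix had a pseudocount of 1 and base frequencies of 0.29 (A, T) and 0.21 (C, G), and its threshold was exact. The motif sheet was held in part.

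Shares carry 95% Wilson intervals, ratios exact intervals from the split of tags, levels Poisson intervals, medians order-statistic intervals and differences Newcombe intervals. Scripts were tested on simulated data. The members, lists and tests were chosen with earlier results of these data known. Genes named were the 8 tallest members, the 4 tallest without a motif, the 4 tallest with a motif within 50 bp of the start, the 3 lowest, the 3 with most IgG tags and up to 4 per list by height, of which the tallest are described. Some members named by this rule are not reported here. Alternatives varied the distance, score threshold, window, scaling, motif settings and annotation.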

Additional observations from a re-analysis of the deposited data

How the results depend on the processing

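No paired analysis was possible because each antibody has a single library. Of 32 alternatives over 10 results, 12 kept the value within its interval, 20 moved it and 0 reversed it, and the cause of the moves was not tested beyond what each setting changes by construction. The share of starts with a summit was 4.99% within 500 bp, 13.1% within 2 kb, 4.42% for peaks with a score of at least 100 and 11.97% over all transcript starts. The share of members upstream was 80.1% within 500 bp, 77.3% for scores of at least 100 and 66.4% with transcript starts. The median height was 14 as recounted tags. The ratio of CTCF to IgG tags was 12.3 within 250 bp, 17.6 when scaled by tags outside peaks, 14.5 with tags not moved and 18.7 for scores of at least 100, and the IgG level was 0.915 within 250 bp and 1.03 for scores of at least 100. At starts without a summit the ratio was 1.28 within 250 bp and 1.39 when scaled by tags outside peaks. The share with a motif was 76.1% at p 1e-04, 25.5% within 50 bp and 63.1% for scores of at least 100, where introns had 83.9%, 31.6% and 80.5% and summits between genes 85.1%, 34.3% and 80.9%. The median motif was 182 bp upstream for scores of at least 100 (-182 bp). The setting without the stretch around Ctcf was chosen after seeing the data and left the ratio at 15.8, the IgG level at 0.961 and the median height at 12. With 1 library per antibody, variation between cultures cannot be given.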

Other observations

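Short words that promoter-binding factors are known to read were counted within 150 bp of the summits and starts, on both strands, after the data had been seen. The windows of members were centred on the summit and those of starts on the start, so their shares do not cover the same stretches. The part of this in the differences below was not tested. The ETS word CCGGAAG was present at 83 of the 500 members within 200 bp of a start, 16.6% (95% Wilson interval 13.6 to 20.1), at 11.4% of all 21418 starts (11.0 to 11.9) and at 1.72% of summits between genes (1.48 to 1.99). The NRF1 word GCGCATGC was present at 5.00% of these members (3.41 to 7.28), at 3.16% of all starts (2.93 to 3.40) and at 0.454% of summits between genes. The NFY word CCAATC was present at 11.8% of these members (9.26 to 14.9), below the 16.2% of all starts (15.7 to 16.7). The ZFP143 word ACTACAA (3.80% of these members, 3.24% of all starts) and the YY1 word AAGATGGC (3.60% and 3.83%) were within counting error of the share of all starts. Over all 1697 members the ETS word was present at 7.42% (6.27 to 8.77) and the NRF1 word at 2.30% (1.69 to 3.13). Both shares lay below those of all starts, the reverse of the 500 members closest to a start. In the same full set the NFY word was at 10.8%, the ZFP143 word at 3.95% and the YY1 word at 2.83% (2.14 to 3.73). The words CCGGAAG and AAGATGGC share 3 letters at their ends and can overlap, and a match is a description of the sequence, not a bound site.

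Of the 89 members with gene starts on both strands within 1 kb, 47 had a CTCF motif, 52.8% (42.5 to 62.8), and 27 were CpG rich, 30.3% (21.8 to 40.5). Their median height was 12 (11 to 14), and they held 1504 CTCF and 78 IgG tags within 150 bp of the summit, a ratio of 18.4 (14.6 to 23.4). Aldh16a1, RP23-3M10.7, Eif2s1 and Trpm8 were among the members with 2 starts within 1 kb.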
